A study of Homo sapiens with 6 samples.

Results

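Transcript levels of 10 genes that encode alpha subunits of heterotrimeric G proteins were followed in RBM12-depleted human neurons with and without isoproterenol. The genes were GNAS, GNAL, GNAI1, GNAI2, GNAI3, GNAO1, GNAZ, GNAQ, GNA11 and GNA13. All 10 were found by gene name among the 19823 genes of the table, and all 10 passed the filter on low counts, so each could be followed in every sample. These genes were selected on their relative levels and on the contrast of isoproterenol with untreated samples, also within same-numbered pairs, so for the members that contrast is given as a description. Where a count of members past a threshold is printed beside that of all genes, it is part of this description and supports nothing.

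The cells were glutamatergic iNeurons, made by doxycycline-induced NGN2 expression from human pluripotent stem cells of the established induced line WTc11. The cells used were a clone carrying dCas9-KRAB, the repressor used for CRISPR interference, and its beta-adrenergic receptors were at their native level. RBM12, which encodes a protein that binds RNA, was knocked down in all 6 samples, and control-guide neurons were not analysed here. The samples were 3 without treatment and 3 treated with isoproterenol, a beta-adrenergic agonist, with no dose or duration given for them. The labels number the samples of each group from 1 to 3. Nothing used here says whether these came from separate differentiations, so p-values measure only the spread between these samples.

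A G protein-coupled receptor that binds its agonist lets the alpha subunit of its G protein exchange GDP for GTP and part from the beta-gamma dimer. The alpha subunit decides the pathway. The s and olf subunits stimulate adenylyl cyclase, which makes cAMP. The i, o and z subunits inhibit adenylyl cyclase, and their beta-gamma dimers open GIRK potassium channels. The q and 11 subunits activate phospholipase C beta, and the 12 and 13 subunits activate guanine nucleotide exchange factors of small GTPases. Isoproterenol acts through receptors that couple to the s subunit, and the cAMP it raises leads to phosphorylation of CREB, a transcription factor that binds the cAMP response element (CRE).

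Because the treatment raises cAMP, promoters of the members were searched for the CRE. The RefSeq promoter table (GRCh38.p14) gave 21 windows for 8 of the 10 members, each from 250 bases before to 50 bases after a start site, and none for GNAQ and GNAZ. The full palindromic site TGACGTCA was found in 1 window, that of GNAO1, against 1.85% of the 35116 windows of all genes. By gene this was 1 of 8 members, against 2.25% of 27305 genes. The CRE core TGACG was searched on both strands (CGTCA on the other) and also counted inside a full site. It was found in 7 of the 21 windows, against 24.6% of all windows. By gene it was found in 5 of the 8 members, against 28.4% of all genes. Several members had more than 1 window, which gives more room for a match per gene. The GNAO1 site and the core sites of GNAS, the most abundant member, are shown 5′ to 3′ on the plus strand with the motif in capitals.
GNAO1 full site, chr16:56191331-56191359: gcggccctgcTGACGTCAgctggcggccc
GNAS core site, chr20:58852646-58852674: gcccacgtcttgCGTCAcgtgtcccgcaa
GNAS core site, chr20:58852910-58852938: aatcggcacgctCGTCAgatccaagcagg
GNAS core site, chr20:58889122-58889150: aagaggctggggCGTCAtcggggccggtt
GNAS core site, chr20:58889196-58889224: cggagcgggctgCGTCAggtggctggccg
The GNAO1 site began 148 bases before the start site. The first 2 GNAS sites began 58 and 59 bases before the start sites at 58852716 and 58852981. The other 2 lay 46 bases before and at base 29 after the start at 58889180. The GNAS windows searched had start sites from 58839748 to 58889180, and which form of the gene product starts at each was not determined. Any start site further on was not searched. GNAL, GNAI2 and GNAI3 had core sites only, while GNAI1, GNA11 and GNA13 had neither motif in their windows. A match describes these letters and not a bound site.

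Each sample held between 18116816 and 21488793 recovered reads. RBM12 itself was at 244.3 to 278.7 normalized counts in untreated and 194.6 to 237.6 in isoproterenol samples. These ranges did not overlap, as in 12.9% of all genes tested, so the RBM12 level differed along with the treatment. Its part in any result was not tested. Without a control guide the depletion of RBM12 could not be measured. Of 12 markers of glutamatergic neurons, 11 were in the table, among them SLC17A6 (mean 13524 normalized counts) and MAP2 (33655), but TUBB3, a neuronal tubulin, was only at 79.4. Markers of GABAergic neurons summed to 255.5 to 328.0 in untreated and 259.5 to 292.9 in isoproterenol samples, with GAD1, GAD2 and SLC32A1 each at a mean under 30, and GFAP, a defining astrocyte marker, was not analysed here. CCNB1, a cyclin of dividing cells, was at 112.2 to 147.2 untreated and 123.1 to 144.7 with isoproterenol, while MKI67 was not analysed here. The summed astrocyte markers AQP4 and S100B were at 159.8 to 175.1 in untreated and 134.4 to 156.8 in isoproterenol samples. The oligodendrocyte markers MBP and MOG summed to 922.1 to 960.0 untreated and 986.0 to 1095 with isoproterenol, with no overlap, nearly all of it MBP (mean 980.6, MOG 10.9). The part of such cells in any result was not tested. In bulk samples, fewer cells of a type and less RNA per cell cannot be told apart.

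GNAS was by far the most abundant member. Its mean over the 6 samples was 143495 normalized counts (read counts divided by a size factor per sample), the 5th highest of all genes in the table after NEFL, NEFM, MT-RNR2 and MAP1B, which encode neurofilament subunits, a mitochondrial ribosomal RNA and a microtubule-associated protein. It took 0.627% ± 0.050 of the reads in untreated and 0.747% ± 0.067 in isoproterenol samples (SD, n = 3 per group). Next below it came MT-CO1, TUBA1A, MT-ND4, MT-ND5 and STMN2, of which the nuclear genes encode an alpha tubulin and a microtubule regulator of axons.

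To compare levels between genes, normalized counts were divided by the length of all annotated exons (GENCODE release 44). On this scale GNAS ranged from 5413 to 7651 normalized counts per kilobase over the samples. GNAZ (930.3 to 1083 per kilobase), GNAL (965.1 to 1023 per kilobase) and GNAQ (948.6 to 1028 per kilobase) followed, with ranges that overlapped one another. GNAO1 came next at 729.5 to 747.8 per kilobase, below the range of GNAQ. GNA11 lay at 318.2 to 392.7 per kilobase. GNAI2 (262.1 to 300.7 per kilobase), GNA13 (239.5 to 281.5 per kilobase) and GNAI3 (237.7 to 260.4 per kilobase) formed a further run in which each range overlapped that of the gene next to it. GNAI1 was lowest, at 160.9 to 184.5 per kilobase.

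The order depended on the length used. GNAS has 22221 bases of annotated exons but a representative transcript of only 1854 bases, and GNAI1 has 24192 against 10083 bases. With representative transcripts, GNAS ranged from 64876 to 91705 normalized counts per kilobase, and its mean was 22.9 times that of the next member, GNAO1. With all exons it was 6.41 times that of the next, GNAZ. GNAO1, the main alpha subunit of neuronal Go, moved from the 5th to the 2nd place, at 3337 to 3421 per kilobase. GNAS and GNAL, in the 1st and 3rd place, were the only 2 of the 10 members whose place was the same on either scale. The plot of levels per kilobase shows the gap between GNAS and the other members on both scales.

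**Figure D1:**
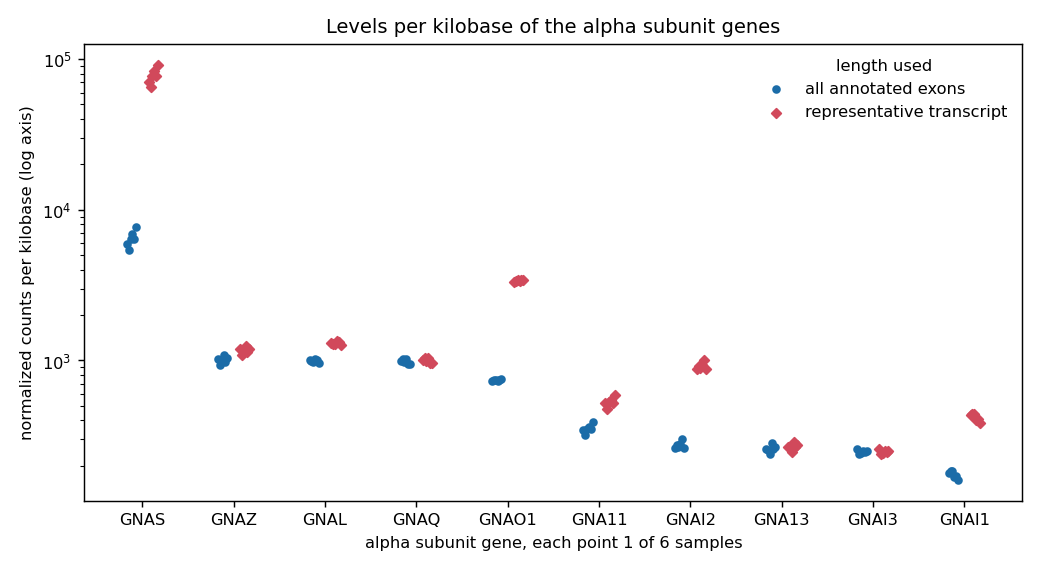
Normalized counts per kilobase (log axis) of the 10 alpha subunit genes, with 1 point for each of the 6 samples, computed with the length of all annotated exons (circles) or of 1 representative transcript (diamonds). GNAS lies highest on both scales (mean 6458 and 77398 per kilobase), and GNAO1 moves most in rank among the members.

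GNAS (ENSG00000087460; chromosome 20, 58839718 to 58911192, plus strand, GRCh38) encodes the s subunit, which couples beta-adrenergic receptors to adenylyl cyclase. The gene also gives rise to the extra-large form of the subunit and to a neuroendocrine secretory protein from upstream promoters, and counts per gene do not separate these. The values were 130777, 120280 and 142778 normalized counts across untreated replicates 1, 2 and 3. It was 154501, 142613 and 170022 across isoproterenol replicates 1, 2 and 3. The groups overlapped, because untreated replicate 3 lay just above isoproterenol replicate 2, but within each number the isoproterenol sample was the higher one. Replicate 2 was the lowest and replicate 3 the highest in both groups.

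The group mean of GNAS was 131278 ± 11257 untreated and 155712 ± 13744 with isoproterenol (SD, n = 3 per group), 18.6% higher. On the log2(normalized count + 1) scale the difference was 0.25 with an SE of 0.097 from limma without the replicate block and 0.010 with it. Within pairs 1, 2 and 3 the log2 differences were 0.24, 0.25 and 0.25, so the SD of the 3 differences was 0.0057. Leaving out single samples gave differences of 0.18 at the lowest, when isoproterenol replicate 3 was dropped, and 0.31 at the highest, when untreated replicate 3 was dropped. It was 0.24 after each sample was corrected for GC content, an alternative chosen after the data were seen.

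GNAL (ENSG00000141404; chromosome 18, 11689264 to 11885685) encodes the olf subunit, which stimulates adenylyl cyclase in olfactory and striatal neurons. It was at 8167, 8051 and 7964 normalized counts across untreated replicates 1 to 3 and at 8349, 8196 and 7880 across isoproterenol replicates 1 to 3. Its groups overlapped, with the lowest of all 6 values in isoproterenol replicate 3. The log2 difference was 0.014 (SE 0.038), and it was higher in 2 of 3 pairs. Exons of GNAL share 2261 bases with MPPE1 on the opposite strand, which was itself at a mean of 353.7 normalized counts, and the strand setting of the counting is not given in the sources used here.

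Among the members that inhibit adenylyl cyclase, GNAI1 (ENSG00000127955; chromosome 7, 79768028 to 80226181) was lower with isoproterenol. It was at 4353, 4465 and 4460 normalized counts across untreated replicates 1 to 3. It was at 4061, 4122 and 3892 across isoproterenol replicates 1 to 3. Every isoproterenol value lay below every untreated value. The group means were 4426 ± 62.9 and 4025 ± 119.2 (SD, n = 3 per group), a log2 difference of -0.14 (SE 0.042), and the differences within pairs 1, 2 and 3 were -0.10, -0.12 and -0.20.

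Its closest relatives did not show the same pattern of values. GNAI2 (ENSG00000114353; chromosome 3, 50226292 to 50259362), the i subunit found in most cell types, was at 1941, 2040 and 1986 normalized counts untreated and 2064, 2227 and 1942 with isoproterenol in replicates 1 to 3. GNAI3 (ENSG00000065135; chromosome 1, 109548615 to 109600195) was at 2355, 2150 and 2204 untreated and 2274, 2219 and 2271 with isoproterenol. Both overlapped between groups, and each was higher in 2 of 3 pairs. Their log2 differences were 0.061 (SE 0.054) for GNAI2 and 0.013 (SE 0.049) for GNAI3. Exons of GNAI3 share 596 bases with a non-coding gene on the same strand, so reads there cannot be given to 1 gene.

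GNAO1 (ENSG00000087258; chromosome 16, 56191390 to 56357444), whose protein couples many inhibitory receptors in neurons, had the smallest log2 difference of the members. It was at 10619, 10732 and 10836 normalized counts across untreated replicates 1 to 3 and at 10699, 10836 and 10884 across isoproterenol replicates 1 to 3. Its log2 differences within pairs 1, 2 and 3 were 0.011, 0.014 and 0.0064, and the overall difference was 0.010 (SE 0.035). The member with a full CRE in its window differed by 0.723% between the group means. GNAS, with core sites only in the windows searched, differed by 18.6%. Whether those windows hold the start of its representative transcript was not determined, so the main promoter of the s subunit may not have been searched. Any link of these motifs to the differences was not tested. GNAZ (ENSG00000128266; chromosome 22, 23070519 to 23125032), a subunit of neurons and platelets that pertussis toxin does not modify, was at 3756, 3421 and 3664 untreated and 3983, 3612 and 3805 with isoproterenol. Its groups overlapped, while the isoproterenol sample was the higher one in all 3 pairs (log2 difference 0.073, SE 0.049).

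Of the members that activate phospholipase C, GNAQ (ENSG00000156052; chromosome 9, 77716097 to 78031811) was at 6919, 7166 and 6860 normalized counts in untreated and 7127, 6614 and 6633 across isoproterenol replicates 1 to 3. Its groups overlapped and it was higher in 1 of 3 pairs (log2 difference -0.040, SE 0.041). The processed pseudogene GNAQP1, which may share reads with GNAQ, was at a mean of 42.8. GNA11 (ENSG00000088256; chromosome 19, 3094362 to 3123999) was at 2181, 2000 and 2213 untreated and 2283, 2198 and 2468 with isoproterenol. As for GNAS, its groups overlapped, replicate 2 was lowest and replicate 3 highest in each group, and all 3 pairs were higher with isoproterenol (0.066, 0.14 and 0.16, overall 0.12 with an SE of 0.055).

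GNA13 (ENSG00000120063; chromosome 17, 65009289 to 65056740, minus strand), whose protein activates exchange factors of small GTPases, was at 1661, 1629 and 1540 normalized counts untreated and 1810, 1663 and 1708 with isoproterenol. The groups did not overlap, although isoproterenol replicate 2 lay only just above untreated replicate 1. The log2 difference was 0.10 (SE 0.054), and within pairs 1, 2 and 3 it was 0.12, 0.030 and 0.15. GNA12, its close relative and no member here, was at a mean of 1731 normalized counts with a log2 difference of 0.060 (SE 0.051; limma adjusted p = 0.823).

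**Figure D2:**
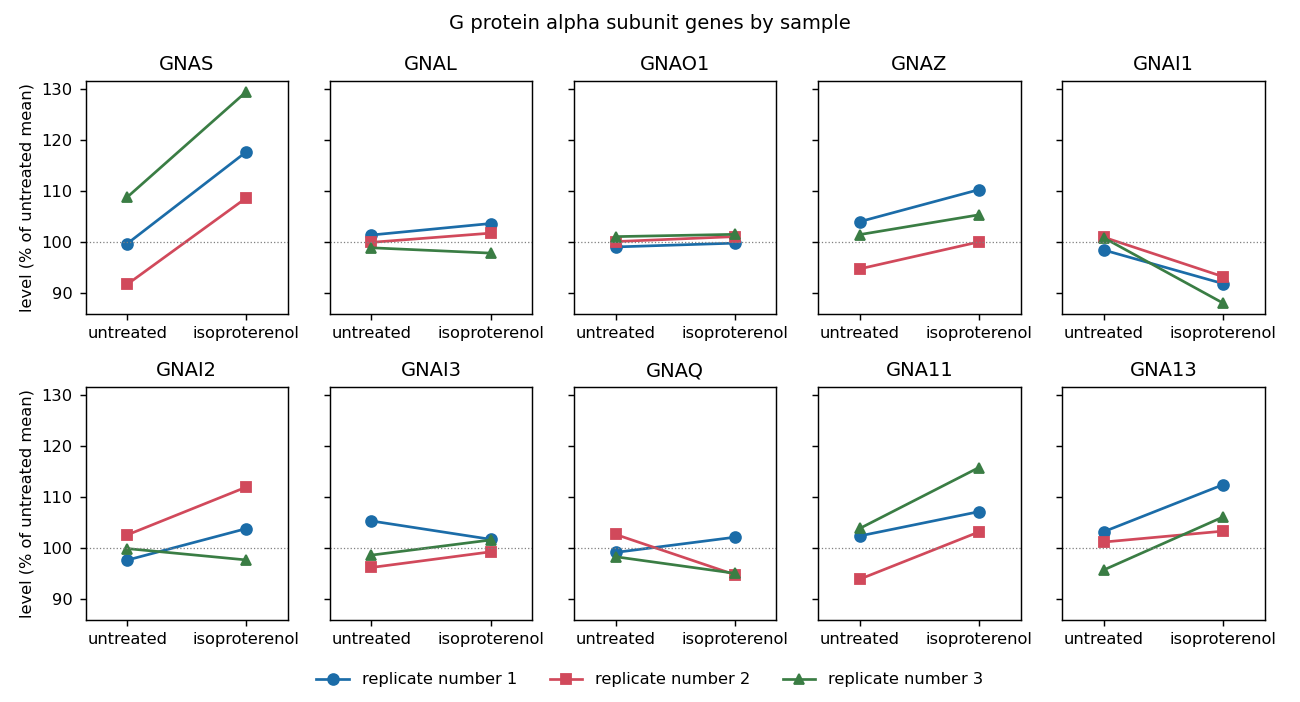
Level of each alpha subunit gene in each sample as a percentage of its own untreated mean, with a line joining the untreated and isoproterenol samples of each replicate number. The 3 GNAS lines run nearly parallel (log2 differences 0.24, 0.25 and 0.25), those of GNAI1 all slope down, and those of GNAO1 stay near 100%.

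Single samples also set the size of the smaller differences. With 1 sample left out, the log2 difference of GNA11 ran from 0.073 (without isoproterenol replicate 3) to 0.16 (without isoproterenol replicate 2). For GNAZ it was lowest, 0.034, when untreated replicate 2 was left out and highest, 0.11, when isoproterenol replicate 2 was. That of GNA13 ran from 0.067 (without isoproterenol replicate 1) to 0.13 (without isoproterenol replicate 2). That of GNAI2 ran from 0.0098 (without isoproterenol replicate 2) to 0.11 (without isoproterenol replicate 3). That of GNAI1 ran from -0.15 (without isoproterenol replicate 2) to -0.11 (without isoproterenol replicate 3). The range was -0.0042 to 0.037 for GNAL, -0.015 to 0.050 for GNAI3, 0.0030 to 0.018 for GNAO1 and -0.076 to -0.021 for GNAQ, so that of GNAL and of GNAI3 crossed 0.

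Over the 10 members the median log2 difference was 0.038, beside 0.0015 over all 18130 genes tested. Of the 10, 8 were above 0, where 50.5% of all genes were. Limma without the block called 0 members at FDR 0.05, where it called 0.0165% of all genes, and 0 passed in edgeR or DESeq2 without the block. Unadjusted limma p-values under 0.05 were found for 2 members and 1393 of all genes. With the replicate block, 3 members passed, GNAS and GNA11 higher and GNAI1 lower, where 4.88% of all genes passed (2.82% higher and 2.06% lower). In 2 of 10 members (GNAI1 and GNA13) the groups did not overlap, as in 12.9% of all genes. The isoproterenol sample was higher in all 3 pairs for 5 members (GNAS, GNAO1, GNAZ, GNA11 and GNA13) and lower in all 3 for GNAI1, where 18.5% and 17.6% of all genes were. Since this contrast and these pairs chose the members, nothing is read from these counts.

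On the per-kilobase scale, the s and olf subunits held 63.2% ± 1.56 of the summed alpha subunit level in untreated and 66.2% ± 1.56 in isoproterenol samples (SD, n = 3 per group). This share was 63.0%, 61.7% and 64.8% across untreated replicates 1 to 3 and 65.6%, 65.0% and 67.9% across isoproterenol replicates 1 to 3. The i, o and z subunits held 22.2% ± 0.76 and 20.5% ± 1.03. The q and 11 subunits held 12.3% ± 0.64 and 11.1% ± 0.45, and GNA13 held 2.30% ± 0.18 and 2.22% ± 0.12. The first share was higher, and those of the i, o and z and of the q and 11 subunits lower, in the isoproterenol sample of each pair. The shares add up to 100%, so a higher GNAS level alone lowers the others. The summed levels of the i, o and z subunits were 2419 ± 46.9 normalized counts per kilobase untreated and 2472 ± 39.0 with isoproterenol, higher in all 3 pairs, and those of the q and 11 subunits were 1340.5 ± 5.16 and 1343 ± 43.6, higher in pairs 1 and 3 (SD, n = 3 per group). With representative transcripts the s and olf share was 90.1% ± 0.70 and 91.4% ± 0.68. These are shares of transcripts over 10 genes and not of proteins.

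Within a sample, the ratio of GNAS to the sum of the other 9 members does not depend on scaling. Its log2 value was 1.64, 1.53 and 1.77 across untreated replicates 1 to 3 and 1.86, 1.77 and 2.04 across isoproterenol replicates 1 to 3. The groups overlapped only in untreated replicate 3 and isoproterenol replicate 2, and pairs 1, 2 and 3 differed by 0.22, 0.24 and 0.26. The geometric mean ratio was 3.13 untreated and 3.70 with isoproterenol. Against single members, the difference of the log2 ratio between groups was between 0.13 (GNAS over GNA11) and 0.38 (GNAS over GNAI1), and all 9 ratios were higher in all 3 pairs.

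The members also differed in how far same-numbered samples deviated together, which is given without a test because the pairs entered the choice of members. GNAS deviated by -0.0048, -0.12 and 0.13 on the log2 scale from its group means in numbers 1, 2 and 3. These deviations were alike in both groups, at -0.0020, -0.12 and 0.12 in untreated and -0.0075, -0.12 and 0.13 in isoproterenol samples. They were smaller for GNA11, at 0.0078, -0.082 and 0.074, and for GNAZ, at 0.063, -0.075 and 0.012. GNAO1 deviated least, by -0.015, 0.0022 and 0.012.

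The deviations of GNAS were also set beside those of genes of like GC content, sorted into 10 equal classes. GNAS has 56.2% GC in its representative transcript, and in its class (54.95% to 58.5% GC) the median deviation of a sample lay between -0.017 and 0.020. GNAZ, at 55.7%, falls in the same class. GNA11 has 62.9% GC, and in its class the median deviation lay between -0.035 and 0.030. These class values are medians over many genes and are taken from the mean over all 6 samples, not from group means. They do not show how far single genes of a class deviate, so the part of GC content cannot be told from them. What distinguishes the replicate numbers is not given in the sources used here.

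The values of GNAS in the contrast, which are among those that chose it, were placed among those of other abundant genes as a description. Of the 234 genes averaging 10000 or more normalized counts, it had the highest log2 difference (0.25) and was the only one beyond 0.2 in either direction. The next was SNHG14, a non-coding host transcript of small nucleolar RNAs, at 0.19, and the lowest was EEF1A1, a translation elongation factor, at -0.15. The median of these genes was -0.0086. In normalized counts the gain of GNAS, 24434 from untreated to isoproterenol, was also the largest of all genes tested, followed by MAP1B at 8239. The SD of its differences over the 3 pairs, 0.0057, compared with a median of 0.028 in these abundant genes, and only 8 of them, GNAS included, had one as small. These ranks use the values by which the members were selected and are no evidence of their own.

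**Figure D3:**
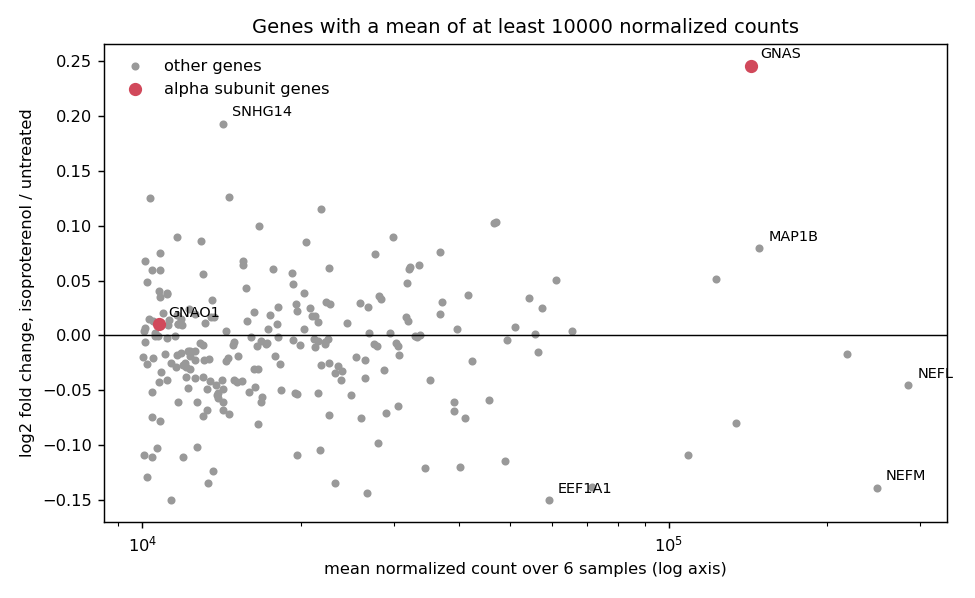
Log2 fold change of isoproterenol over untreated samples against the mean normalized count over 6 samples (log axis) for the 234 genes whose mean reached 10000, with each point a gene and alpha subunit genes in red. GNAS lies at 0.25, above SNHG14 at 0.19, while GNAO1 lies at 0.010 among the other genes.

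Of the 5 genes whose levels followed GNAS most closely over the 6 samples, out of 4630 tested genes with a mean of at least 1000, 4 are given, PABPN1, PDZD7, C12orf49 and TTYH3. Their Pearson correlations with GNAS were 0.986, 0.984, 0.984 and 0.980 on the log2 scale (n = 6 samples, which share libraries and depth). Like GNAS, each of these 4 was lowest in replicate 2 and highest in replicate 3 of each group. PABPN1, which encodes a nuclear poly(A)-binding protein, was at 1296, 1241 and 1365 normalized counts in untreated and 1408, 1327 and 1504 across isoproterenol replicates 1 to 3. The log2 differences between groups were 0.12 for PABPN1, 0.23 for PDZD7, 0.074 for C12orf49 and 0.072 for TTYH3, beside 0.25 for GNAS. The groups did not overlap in PDZD7 and TTYH3, as in 12.9% of all genes tested. As these genes were picked for their likeness to GNAS, their tests in this contrast would be no evidence of their own and are not given. Among the members GNA11 was most like GNAS (r = 0.968) and GNAI1 least (r = -0.865).

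The partners of the alpha subunits gave a mixed picture. Of 17 listed G beta and G gamma genes 13 were tested, and 2 gamma genes passed FDR 0.05 with the replicate block, both higher (15.4%, beside 4.88% of all genes). None (0) of the 13 passed without it in limma, edgeR or DESeq2, where 2 had an unadjusted p under 0.05 in limma, and 0 passed in DESeq2 with it. Their median log2 difference was 0.029. GNG7, a gamma subunit abundant in striatum, was at 528.4, 566.1 and 524.5 normalized counts across untreated replicates 1 to 3 and at 655.6, 635.4 and 676.0 across isoproterenol replicates 1 to 3. The groups did not overlap, and GNG7 rose by 0.28 on the log2 scale with an SE of 0.070 (limma adjusted p = 0.253 without the block and 0.00147 with it, 0.0677 with the block but without pair 3, and 0.273 in DESeq2 with the block). GNG8 was low, at 69.96, 47.4 and 49.7 untreated and 100.8, 66.9 and 87.2 with isoproterenol, with a log2 difference of 0.60 (SE 0.20, limma adjusted p = 0.477 and 0.0326 with the block). The call of GNG8 was lost without any of the 3 pairs (limma adjusted p = 0.0573 to 0.274) and in DESeq2 with the block (0.692).

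The most abundant beta and gamma genes were level between groups. GNB1, the main beta subunit here, was at 22523 ± 105.7 normalized counts untreated and 22473 ± 86.3 with isoproterenol (SD, n = 3 per group; log2 difference -0.0032, SE 0.030; limma adjusted p = 0.988). GNG2 was at 22279 ± 1012 and 22180 ± 1554 (log2 difference -0.0078, SE 0.047; limma adjusted p = 0.982). GNG2 differed between replicate numbers (limma F test, adjusted p = 5.41e-09), as 10.3% of all genes did at FDR 0.05, with its lowest values in replicate 3 of each group (21209 and 20615), where GNAS was highest. On the per-kilobase scale of all exons, GNG3 had a mean of 6288 normalized counts per kilobase, GNG2 3485 and GNB1 2491, beside 6458 for GNAS. Exons of GNG3 share 447 of 864 bases with BSCL2 on the opposite strand, so that level is uncertain.

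**Figure D4:**
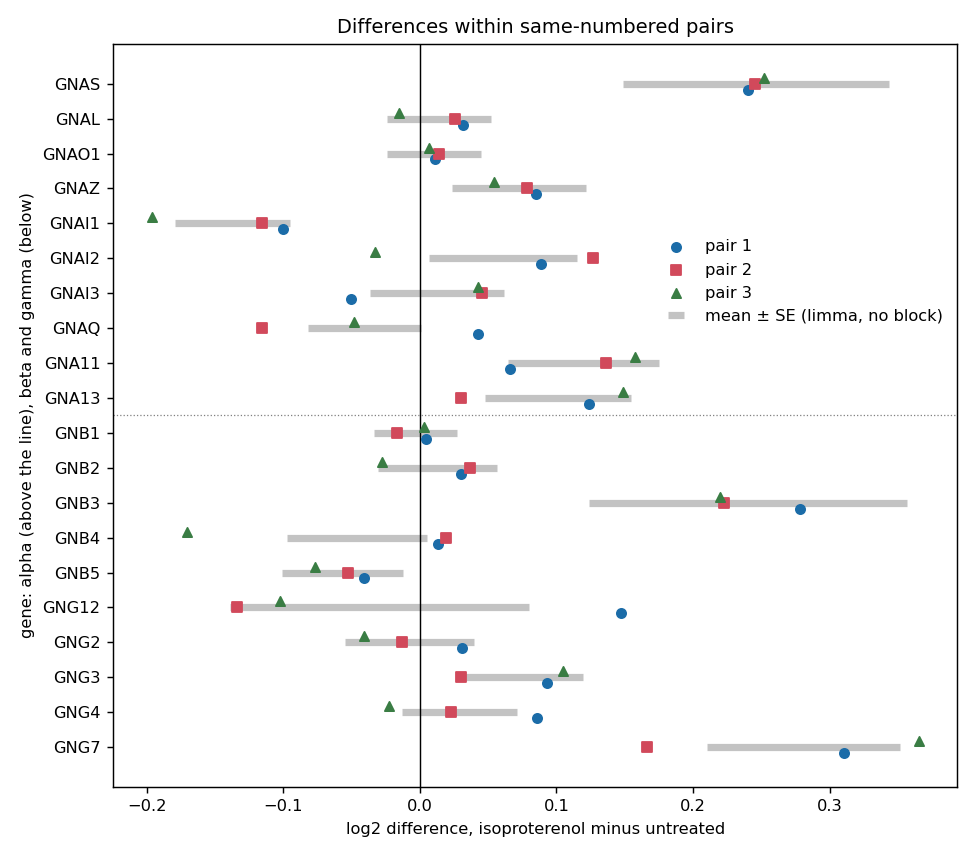
Log2 differences (isoproterenol minus untreated) within same-numbered pairs 1 to 3 (points) and the limma difference with its SE without the block (grey bars), for the 10 alpha subunit genes and the beta and gamma genes that averaged 100 or more normalized counts. The 3 GNAS points lie between 0.24 and 0.25 inside a wide bar, and GNB3, GNG3 and GNG7 lie above 0 in every pair.

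Receptors and effectors on either side of the alpha subunits were counted over lists of known family members. Of the 112 tested genes in all lists other than the members, 0 passed FDR 0.05 in limma or edgeR without the block (15 had an unadjusted p under 0.05 in limma), and 1 passed in DESeq2 (CHRM2). With the block, 11 passed in limma (9.82%, beside 4.88% of all genes), 7 higher and 4 lower, and 3 of these 11 (CHRM2, SSTR2 and TRIO) passed without each pair in turn. With the block, edgeR called 13 of the 112 and DESeq2 called 3, again CHRM2, SSTR2 and TRIO.

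None (0) of 17 tested receptors that couple to the s subunit passed with or without the block, in limma, edgeR or DESeq2 (0 had an unadjusted p under 0.05 in limma). The most abundant was ADCYAP1R1, the receptor of the neuropeptide PACAP, at 5863 ± 68.2 normalized counts untreated and 5891 ± 86.2 with isoproterenol (SD, n = 3 per group).

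Of 25 tested receptors that couple to i and o subunits, 5 passed with the block, 3 higher and 2 lower. CHRM2, a muscarinic acetylcholine receptor, was at 1347, 1278 and 1307 normalized counts in untreated and 1090, 1096 and 1079 across isoproterenol replicates 1 to 3, with no overlap. It fell by 0.27 on the log2 scale with an SE of 0.054 (limma adjusted p = 0.116, and 8.08e-06 with the block). SSTR2, a somatostatin receptor, was at 811.3, 699.6 and 823.4 untreated and 985.8, 886.9 and 1020 with isoproterenol, again with no overlap. It rose by 0.31 with an SE of 0.074 (limma adjusted p = 0.207, and 7.91e-06 with the block).

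The other 3 calls among these receptors depended on single pairs and on the tool. ADORA1, an adenosine receptor, rose by 0.16 (limma adjusted p = 0.773, 0.0151 with the block, and 0.201 and 0.0611 with it but without pair 2 or pair 3). CNR1, the cannabinoid receptor of neurons, rose by 0.095 (adjusted p = 0.616, 0.0109 with the block, and 0.393 and 0.0563 without pair 1 or pair 2). OPRK1, the kappa opioid receptor, fell by 0.26 (adjusted p = 0.856, 0.0149 with the block, and 0.102 and 0.0861 without pair 1 or pair 3). In DESeq2 with the block the adjusted p was 0.618 for ADORA1, 0.573 for CNR1 and 0.537 for OPRK1. GABBR1, a subunit of the GABA-B receptor and the most abundant of the list, had a log2 difference of -0.0065 (SE 0.038, limma adjusted p = 0.982).

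Of 12 tested receptors that couple to q and 11 subunits, P2RY1, a purinergic receptor, passed with the block. It fell by 0.33 on the log2 scale (SE 0.18; limma adjusted p = 0.706, 0.0349 with the block, 0.162 and 0.362 with it but without pair 2 or pair 3, and 0.757 in DESeq2 with the block). The most abundant, the thrombin receptor F2R, had a log2 difference of 0.026 (SE 0.061, limma adjusted p = 0.951).

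Among 12 tested adenylyl cyclases and GIRK channels, KCNJ9, a GIRK subunit, passed with the block. It was at 1160 ± 104.0 normalized counts untreated and 1034 ± 37.9 with isoproterenol (SD, n = 3 per group), a log2 difference of -0.16 (SE 0.066; limma adjusted p = 0.595, 0.0265 with the block, 0.0728 and 0.351 with it but without pair 1 or pair 2, and 0.691 in DESeq2 with the block). ADCY1, a calcium-stimulated adenylyl cyclase and the most abundant of the list, had a log2 difference of -0.079 (limma adjusted p = 0.759, 0.0519 with the block). Of 10 tested effectors of the q, 11, 12 and 13 subunits, TRIO, an exchange factor of small GTPases that the q subunit activates, was at 7505, 6980 and 7238 untreated and 8045, 7833 and 8090 with isoproterenol. Its groups did not overlap, and it rose by 0.14 with an SE of 0.039 (limma adjusted p = 0.290, and 4.60e-06 with the block). ARHGEF12, an exchange factor of the G12 and G13 pathway, had a log2 difference of -0.017 (SE 0.039, limma adjusted p = 0.946). Of 8 tested chaperones and regulators of alpha subunits, 0 passed with or without the block in limma, edgeR or DESeq2 (0 had an unadjusted p under 0.05 in limma), the most abundant being CCDC88A (log2 difference 0.037, SE 0.045).

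GNAS lies in an imprinted region of chromosome 20, and 12 genes listed around it, as far as PMEPA1 at 1128182 bases from GNAS, were tested. Their median log2 difference was 0.14, beside 0.0015 over all genes, and 0.20, 0.056 and 0.12 in pairs 1, 2 and 3. Of the 12, 11 were above 0, where 50.5% of all genes were. Only ATP5F1E, a subunit of ATP synthase 114283 bases from GNAS, passed with the block. It was at 3208, 3085 and 3232 normalized counts untreated and 3727, 3199 and 3513 with isoproterenol, and rose by 0.13 with an SE of 0.052 (limma adjusted p = 0.593, 0.00349 with the block, 0.266 with it but without pair 1, and 0.400 in DESeq2 with the block). NELFCD, the nearest tested gene at 70016 bases, had a log2 difference of 0.12 (SE 0.061, limma adjusted p with the block 0.126), and its exons share 6136 bases with CTSZ on the opposite strand. VAPB, the most abundant neighbour, had a log2 difference of -0.025 (SE 0.046, limma adjusted p = 0.934). Without the block 0 of the 12 passed in limma, edgeR or DESeq2, and 3 had an unadjusted p under 0.05 in limma. Exons of GNAS share 1127 bases with GNAS-AS1 on the opposite strand, a gene not analysed here, and 36 with another non-coding gene that was at a mean of 3.71 normalized counts.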

How the data were processed

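Per the labels and methods, the authors selected poly(A) RNA, made directional libraries, checked reads with FastQC, aligned them to GRCh38 with STAR, counted genes with featureCounts and scaled by DESeq2. Versions, annotation and strand setting are not given in the sources used here. The deposited signal is the read count of a gene divided by the size factor of its sample, and whole reads were recovered for 100% of values (tolerance 0.01 read). Since the values are normalized, limma 3.58.1 (R 4.3.3, trend, robust, two-sided, Benjamini-Hochberg) was run on log2(value + 1) for 18130 genes with more than 5 reads in at least 4 samples. This scale understates changes of low genes. edgeR 4.0.16 and DESeq2 1.42.0 on the recovered reads were alternatives, checked on simulated data. Deviations of same-numbered samples correlated at 0.269, 0.493 and 0.388 over 11587 genes, each above 0.1, so same-numbered samples were treated as pairs. This pairing comes from the labels' numbers and these data. Members and lists were chosen with earlier results of these data known. Named genes are the members, called or most abundant genes of each list, the 5 genes most like GNAS and its neighbours in abundance (4 above, 5 below). The rule held 1 further gene like GNAS that is not reported here. GNAI2, GNA13 and GNAQ have processed pseudogenes that can share their reads. Lengths and positions come from GENCODE release 44, which held 19742 of the gene identifiers. GC correction (20 bins) and leaving out pairs were added after seeing the data.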

Additional observations from a re-analysis of the deposited data

How the results depend on the processing

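Taking the replicate pairs into account moved the counts most. Over all genes 3 passed FDR 0.05 in limma, 885 with the replicate block, 977 in edgeR with it, 23 in DESeq2, 139 in DESeq2 with it and 1023 with GC correction and the block. Members called, a count on the contrast that chose them and so no evidence, numbered 0 in limma, 3 with the replicate block, 3 in edgeR with it, 1 in DESeq2 with it and 3 with GC correction and the block. With 1 sample left out at a time, 2 to 70 genes passed, the highest without isoproterenol replicate 2, and 7 without isoproterenol replicate 1, 6 without isoproterenol replicate 3 and 7 without untreated replicate 2. The members' median log2 difference of 0.038 ran from 0.017 (without isoproterenol replicate 2) to 0.054 (without isoproterenol replicate 3). The cause was not tested. With representative transcript lengths 2 of 10 members held their place, since GNAS and other genes have many exons outside that transcript. The s and olf share averaged 64.7%, 90.8% with those lengths and 81.7% with no length correction. TMM and total-count scaling, other pseudocounts and filters moved none of the other values by more than the spread between replicates, and no fold change of a named gene turned its direction in a called result. Of genes named for abundance, NEFL, MAP1B and TUBA1A passed in limma with the block (adjusted p = 2.68e-04, 3.58e-09 and 0.00520) and not without it. In edgeR with the block MAP1B (9.85e-04) and NEFM (6.46e-11, limma 0.326) passed but NEFL (0.0817) and TUBA1A (0.0910) did not, and in DESeq2 with it none of these 4 did (0.0923 to 0.890). ADCY1 passed in edgeR with it (0.0305) and with GC correction and the block (0.0201). The block changed no other limma call of a gene whose test is given, beyond those beside their values. The number of samples, 3 a group, limits precision.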
